A study of Mus musculus with 8 samples.

Results

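The genes described here encode 10 subunits of the Polycomb repressive complexes of the mouse, 5 of PRC2 (Ezh2, Ezh1, Eed, Suz12 and Jarid2) and 5 of PRC1 (Rnf2, Ring1, Bmi1, Pcgf6 and Cbx7). They were taken by name from 37310 genes in the expression table, and all 10 were found in it. PRC2 places methyl groups on histone H3 at the site H3K27, and PRC1 attaches ubiquitin to histone H2A. Both marks are tied to the repression of developmental genes. In the mouse, H3K27 methylation laid down in the oocyte is carried into the early embryo, where it keeps the maternal copy of a small set of genes and of the X chromosome's Xist gene silent.

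Polyadenylated RNA of mouse embryos at the 2-cell stage was sequenced. The triclocarban group held 4 libraries of embryos cultured from the fertilized egg in G1 medium with 6 µM triclocarban, an antibacterial compound of soaps and other personal care products. The control group held 4 libraries of embryos cultured in the same medium with the solvent DMSO. The labels give no strain, genotype or age of the parents, no number of embryos per library, and no statement that libraries came from separate cultures. The p-values given here therefore cover only how far these libraries scatter, and that scatter may be technical. The comparison addressed whether exposure to triclocarban changes the expression of epigenetic regulators at the passage from maternal to embryonic transcripts, a question taken from the title of the series.

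Expression is in FPKM, which divides a gene's fragments by its transcript length and by the library's total, so levels of different genes can be set side by side. FPKM is a share of a library's RNA, so a larger amount of a transcript per embryo and a smaller amount of other RNA cannot be told apart, nor can fewer cells of a type and less RNA per cell. The true depth is not known, and a rough estimate from the lowest values was 6.9 to 13.6 M fragments in triclocarban libraries and 11.3 to 14.8 M fragments in control libraries. This estimate is weak: only 4.8 to 6.5% of low values came out as whole numbers of fragments, where 4% would by chance. Little can thus be read from triclocarban library 2 having the lowest estimate. Triclocarban library 2 lay farthest from the rest of its group, at a mean absolute difference of 0.63 log2 units over all tested genes. The other 3 triclocarban libraries were at 0.30 to 0.39. Controls 1 and 2 differed from controls 3 and 4 in many genes. A total of 13 matched markers of the oocyte and 2-cell stage were above 1 FPKM in all 8 libraries, summing to 4642 to 6019 FPKM with triclocarban and 2032 to 4116 FPKM in controls. The largest part was Oosp1, at 2344 to 3050 FPKM with triclocarban and 1172 to 2329 FPKM in controls. The sums were 3983 and 4116 FPKM in controls 1 and 2, and 2032 and 2171 FPKM in controls 3 and 4. The 14 markers of cumulus and granulosa cells, which surround the egg, summed to 3.46 to 8.06 FPKM with triclocarban and 21.8 to 31.3 FPKM in controls. Most of that sum in controls came from Amhr2, at 0.19 to 2.37 FPKM with triclocarban and 15.4 to 26.7 FPKM in controls, while Lhcgr and Amh were listed at 0 in all 8 libraries. By the test described in the next paragraph, 7 of the 13 stage markers were higher and 2 lower, among them Ooep and Nlrp5 (higher) and Zp3 (lower). Of all tested genes, 11.3% were higher and 30.8% lower. The number of higher stage markers was 3 on leaving out triclocarban library 1, triclocarban library 3 or control 3, and 4 on leaving out triclocarban library 4 or control 4. Leaving out both controls 3 and 4 gave 3 higher and 0 lower. Of 3 tested cumulus and granulosa markers, Amhr2 and Tnfaip6 were lower and Fshr higher (limma adjusted p = 0.0282). Tnfaip6 was at 0.23 to 0.49 FPKM with triclocarban and 1.53 to 5.01 FPKM in controls. It passed the filter through the controls alone, so its lower call carries little weight. Amhr2 was below 1 FPKM in triclocarban libraries 2 and 4, and Fshr in controls 2, 3 and 4. Each of these thus passed the filter through the group where it was higher. The call of Fshr was lost with no filter (adjusted p = 0.0933), on leaving out triclocarban library 1 or 3 or control 3 or 4 (adjusted p from 0.0696 to 0.0848), and on leaving out both controls 3 and 4 (adjusted p = 0.292). Genes at 1 FPKM or more numbered 11788 to 11957 with triclocarban and 12828 to 13541 in controls, and mitochondrial genes took 11.1 to 17.6% of the FPKM sum with triclocarban and 16.6 to 24.3% in controls. The part of these differences in the results that follow was not tested.

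With triclocarban, 3 of the 4 core PRC2 genes rose: Ezh2, Eed and Suz12, with means of 2.07, 2.08 and 2.7 times the control mean. For Suz12 this ratio leans on triclocarban library 2, without which its log2 change was 0.83 in place of 1.23. The other 6 members that could be tested did not pass the threshold in either direction, and Ring1, listed at 0 in 7 libraries, was not tested. The limma test on log2(FPKM + 1) took genes that reached 1 FPKM in 4 or more libraries, and a gene was called at a Benjamini-Hochberg adjusted p under 0.05 over all 12941 genes tested. By this rule 42.1% of all tested genes were called, 11.3% as higher and 30.8% as lower with triclocarban. Of the 9 tested members, 3 were higher (33.3%) and 0 were lower. The 0 held at this threshold only: at an unadjusted p under 0.05, 1 member (Cbx7) was lower. The median log2 change was -0.11 over the 9 tested members and -0.19 over all tested genes. All 4 triclocarban libraries lay above all 4 controls for the same 3 members, where 10.2% of tested genes did so, and below them for 0 members, where 30% of tested genes did so. The 3 higher members were again called without triclocarban library 2, and 2 of them (Ezh2 and Eed) without controls 1 and 2 or without controls 3 and 4. A count over so few genes, chosen with results of these data known, is a description.

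**Figure D1:**
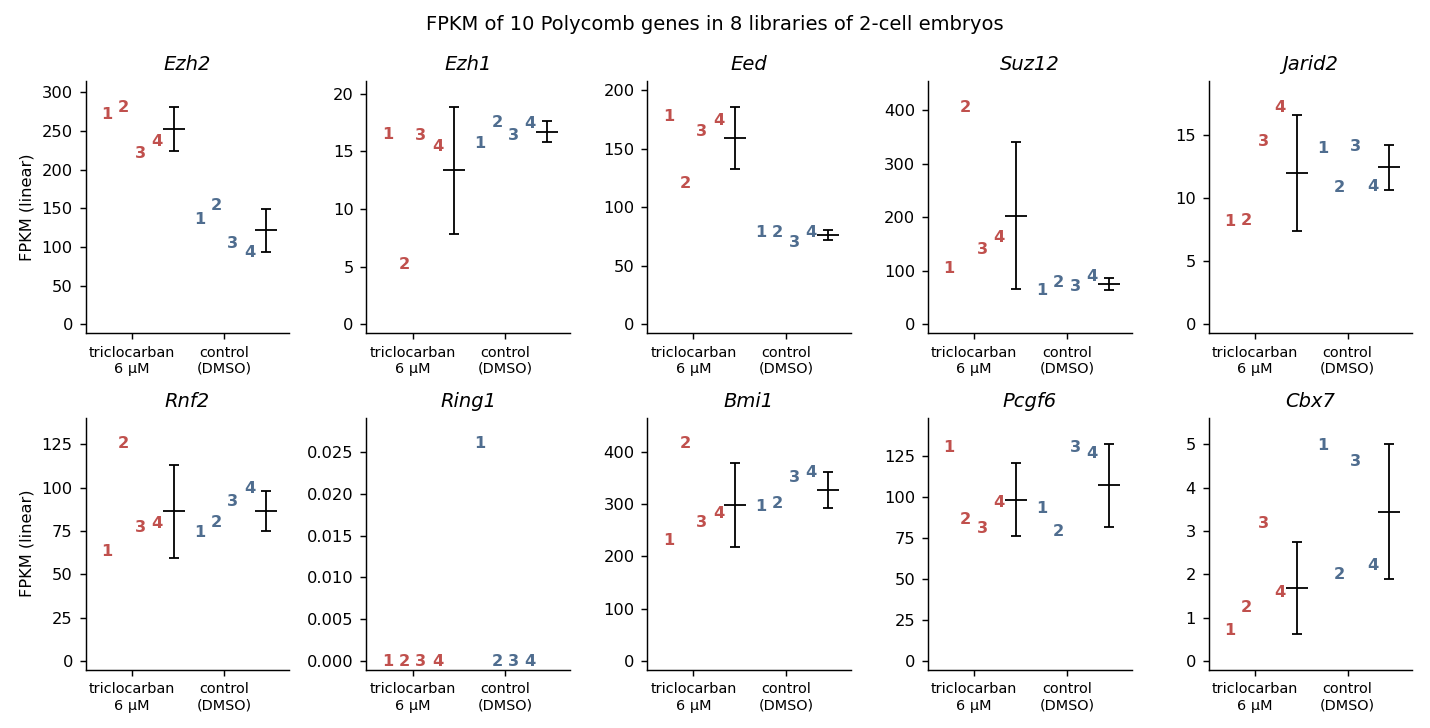
FPKM of the 10 Polycomb genes on linear axes that start at 0, with triclocarban libraries (red) left of control libraries (blue). Numerals are the library numbers, and the black mark with its bar is the group mean with its SD (n = 4 each), left out for Ring1. The triclocarban libraries of Ezh2, Eed and Suz12 lie above all controls, and triclocarban library 2 stands apart for Suz12 (405.6 FPKM) and Ezh1 (5.15 FPKM).

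The promoters of the 3 genes that rose are shown because these genes were called in the same direction. The promoter of Ezh1, the paralog of Ezh2 that was not called, is shown beside them. Each is a window of 300 bases around the gene's start in RefSeq (GRCm38.p6), most of it upstream, written 5′ to 3′ on the gene's strand. Capitals mark matches, on either strand, to CCAAT or to either of 2 E2F-type motifs, TTCCCGC and TTGGCGC, and no marked matches overlap.
Ezh2, chr6:47594981-47595280, minus strand: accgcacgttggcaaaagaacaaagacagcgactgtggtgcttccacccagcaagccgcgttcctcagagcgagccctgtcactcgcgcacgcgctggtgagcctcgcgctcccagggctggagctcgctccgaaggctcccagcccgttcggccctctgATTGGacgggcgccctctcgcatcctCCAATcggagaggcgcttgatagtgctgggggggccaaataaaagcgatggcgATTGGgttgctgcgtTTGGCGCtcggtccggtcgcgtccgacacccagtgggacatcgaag
Eed, chr7:89980927-89981226, minus strand: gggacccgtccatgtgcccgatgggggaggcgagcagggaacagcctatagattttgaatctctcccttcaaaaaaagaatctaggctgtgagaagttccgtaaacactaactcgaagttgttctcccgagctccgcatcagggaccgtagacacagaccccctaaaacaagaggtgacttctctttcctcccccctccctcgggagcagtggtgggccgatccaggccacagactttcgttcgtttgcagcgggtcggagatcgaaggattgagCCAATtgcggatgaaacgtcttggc
Suz12, chr11:79992856-79993155, plus strand: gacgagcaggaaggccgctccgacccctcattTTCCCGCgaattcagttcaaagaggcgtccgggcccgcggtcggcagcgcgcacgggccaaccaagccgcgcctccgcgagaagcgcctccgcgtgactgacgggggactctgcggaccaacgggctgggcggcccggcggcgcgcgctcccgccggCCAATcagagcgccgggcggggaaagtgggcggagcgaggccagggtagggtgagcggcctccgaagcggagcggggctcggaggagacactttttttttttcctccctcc
Ezh1, chr11:101226414-101226713, minus strand: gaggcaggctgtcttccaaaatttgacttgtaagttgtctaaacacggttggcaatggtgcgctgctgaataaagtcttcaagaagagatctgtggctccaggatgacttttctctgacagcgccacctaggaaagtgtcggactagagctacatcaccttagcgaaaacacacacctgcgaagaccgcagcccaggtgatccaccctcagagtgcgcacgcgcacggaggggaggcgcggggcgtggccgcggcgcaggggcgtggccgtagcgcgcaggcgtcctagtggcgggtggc

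The Ezh2 window held 3 matches to CCAAT and 1 to TTGGCGC. The Suz12 window held 1 match to CCAAT and 1 to TTCCCGC, and the Eed window 1 match to CCAAT. The Ezh1 window held none of the 3 motifs. Among 32851 promoter windows of the same length, 37.4% held CCAAT and 6.81% held an E2F-type motif of either form. Over all 10 members, which have 11 windows since Jarid2 has 2 starts, CCAAT was found for Ezh2, Eed, Suz12, Jarid2 and Cbx7, and E2F-type motifs for Ezh2 and Suz12. The GC box GGGCGG, not marked above, was in 35.7% of all windows. It was found for Suz12, Jarid2, Rnf2, Ring1, Bmi1, Pcgf6 and Cbx7, with 6 matches in the Bmi1 window, some of which overlap each other. The members' windows had a median of 24 CpG dinucleotides, against 7 over all windows, and a median GC content of 64.3% against 52.7%. A match is a description of the letters and not evidence of binding.

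Ezh2 encodes the main H3K27 methyltransferase of dividing cells (ENSMUSG00000029687.9, GRCm38 chromosome 6, 47530139 to 47595341, minus strand). Its level was 270.9, 281, 220.4 and 236.3 FPKM in triclocarban libraries 1 to 4, and 135.9, 153.8, 105.1 and 93.2 FPKM in control libraries 1 to 4. The lowest triclocarban library was above the highest control, and among controls, libraries 1 and 2 were above libraries 3 and 4. The means were 252.1 ± 28.5 FPKM with triclocarban and 122.0 ± 27.8 FPKM in controls (SD, n = 4 each). On the log2(FPKM + 1) scale it rose by 1.06 (standard error 0.25, 95% interval 0.52 to 1.61, limma adjusted p = 0.00539). This change was larger than that of 91.4% of tested genes.

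Ezh1 encodes the second H3K27 methyltransferase, which has weaker enzymatic activity and is known from resting and differentiated cells (chromosome 11, 101191115 to 101226463, minus strand). It was at 16.5, 5.15, 16.3 and 15.4 FPKM in triclocarban libraries 1 to 4, and at 15.6, 17.5, 16.3 and 17.4 FPKM in controls 1 to 4. Except for triclocarban library 2, which was at 0.32 times the mean of the other 3, the treated libraries lay within or just below the range of the controls. The log2 change was -0.42 with a 95% interval of -1.18 to 0.34 (limma adjusted p = 0.354). Without triclocarban library 2 it was -0.05 (adjusted p = 0.841).

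The FPKM ratio of Ezh2 to Ezh1 was 16.4, 54.6, 13.5 and 15.3 in triclocarban libraries 1 to 4 and 8.69, 8.78, 6.43 and 5.36 in controls 1 to 4. The groups did not overlap in this ratio, and the value of 54.6 came from the library in which Ezh1 was low. Ezh2 was thus the more abundant methyltransferase transcript in all 8 libraries. Whether the changes of Ezh2 and Ezh1 differ from each other was not tested.

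Eed encodes the subunit that binds methylated H3K27 and stimulates the enzyme (ENSMUSG00000030619.8, chromosome 7, 89954654 to 89980983, minus strand). Its level was 177.4, 120.1, 164.7 and 174 FPKM in triclocarban libraries 1 to 4 and 78.5, 78.4, 69.7 and 78.7 FPKM in controls 1 to 4. All treated libraries lay above all controls, with library 2 the lowest of the treated. The means were 159.1 ± 26.5 FPKM with triclocarban and 76.3 ± 4.39 FPKM in controls (SD, n = 4 each). Its log2 change was 1.03 (standard error 0.23, 95% interval 0.52 to 1.54, limma adjusted p = 0.00421). The change exceeded that of 91.1% of tested genes. Of the members, Eed had the smallest adjusted p, and it differed little between the pairs of controls, at a mean of 78.4 FPKM in controls 1 and 2 and 74.2 FPKM in controls 3 and 4.

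Suz12 encodes the scaffold subunit that holds the PRC2 core together (ENSMUSG00000017548.9, chromosome 11, 79993106 to 80034123, plus strand). Its level was 103.7, 405.6, 140.3 and 161.3 FPKM in triclocarban libraries 1 to 4 and 62.4, 78.3, 69.7 and 90.2 FPKM in controls 1 to 4. All treated libraries lay above all controls, but library 2 was at 3 times the mean of the other treated libraries. The means were 202.7 ± 137.3 FPKM with triclocarban and 75.1 ± 11.9 FPKM in controls (SD, n = 4 each). This gave a log2 change of 1.23 (standard error 0.38, 95% interval 0.40 to 2.06, limma adjusted p = 0.022). Without triclocarban library 2 it was 0.83 (adjusted p = 0.0176), a smaller change with a smaller error. The call was lost with no filter on low genes (adjusted p = 0.0613), without control 3 (adjusted p = 0.0512), and when controls 1 and 2 (adjusted p = 0.0822) or controls 3 and 4 (adjusted p = 0.0765) were left out. Over all alternatives the adjusted p ran from 0.0106 to 0.0822.

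Summed over Ezh2, Eed, Suz12 and Ezh1, the PRC2 core took 568.5, 811.9, 541.6 and 587.1 FPKM in triclocarban libraries 1 to 4 and 292.5, 327.9, 260.9 and 279.4 FPKM in controls 1 to 4. Ezh2 made up 47.6, 34.6, 40.7 and 40.3% of the sum in triclocarban libraries 1 to 4 and 46.5, 46.9, 40.3 and 33.4% in controls 1 to 4, so its share overlapped between the groups. Ezh1 made up 0.6 to 3.0% with triclocarban and 5.3 to 6.3% in controls. In triclocarban library 2, 50% of the sum was Suz12, where it was 18.2 to 27.5% in the other treated libraries and 21.3 to 32.3% in controls.

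**Figure D2:**
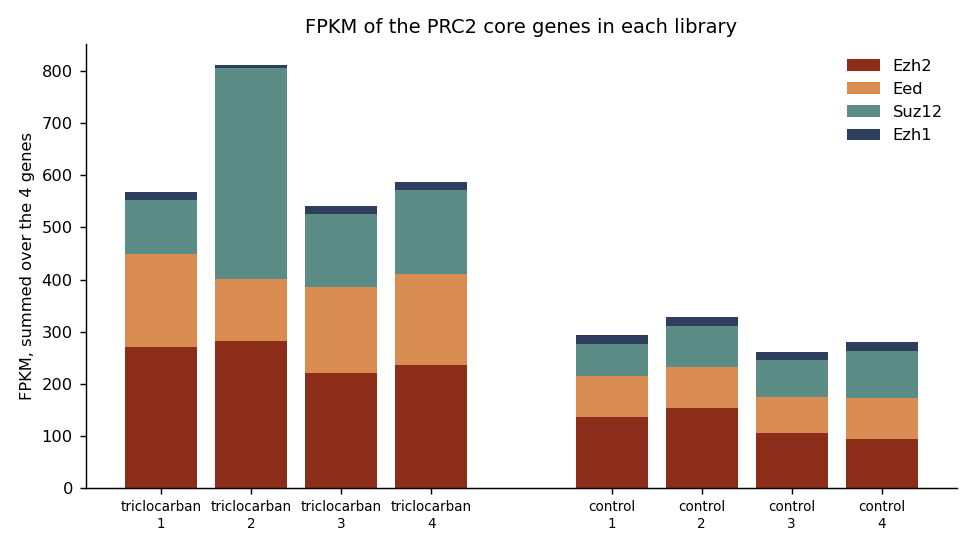
FPKM of Ezh2, Eed, Suz12 and Ezh1 stacked for each library, from 0, with triclocarban libraries left of control libraries. The treated libraries sum to 541.6 to 811.9 FPKM and the controls to 260.9 to 327.9 FPKM, and the Suz12 segment of triclocarban library 2 is the largest single segment.

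Jarid2 encodes an accessory subunit that helps bring PRC2 to chromatin (chromosome 13, 44729474 to 44921643, plus strand). It was at 8.13, 8.21, 14.5 and 17.2 FPKM in triclocarban libraries 1 to 4 and at 14, 10.9, 14.1 and 10.9 FPKM in controls 1 to 4. Of the treated libraries, 2 lay below all controls and 2 above, so the groups overlapped. The log2 change was -0.11 with a 95% interval of -0.75 to 0.54 (limma adjusted p = 0.799).

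Among PRC1 genes, Rnf2 encodes RING1B, the principal E3 ubiquitin ligase of the complex (chromosome 1, 151458004 to 151500955, minus strand). It was at 63.5, 125.4, 76.9 and 79.4 FPKM in triclocarban libraries 1 to 4 and at 74.2, 80, 91.8 and 99.6 FPKM in controls 1 to 4. The groups overlapped, with the lowest and the highest value both among the treated libraries. Its log2 change was -0.04 with a 95% interval of -0.62 to 0.55 (limma adjusted p = 0.923), and the means were 86.3 ± 26.96 FPKM with triclocarban and 86.4 ± 11.5 FPKM in controls (SD, n = 4 each).

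Ring1, the gene of the paralogous ligase RING1A (chromosome 17, 34020792 to 34024680, minus strand), was listed at 0 in all 4 triclocarban libraries and in controls 2, 3 and 4, and at 0.03 FPKM in control 1. It did not reach the filter and was not tested. Whether these zeros reflect the transcript's level or the counting of its reads was not tested.

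Bmi1 encodes PCGF4, a partner of the ligase in canonical PRC1 (chromosome 2, 18677018 to 18686629, plus strand). It was at 231.1, 415.2, 264.6 and 281.3 FPKM in triclocarban libraries 1 to 4 and at 294.9, 300.9, 351.1 and 360.7 FPKM in controls 1 to 4. Libraries 1, 3 and 4 of the treated group lay below all controls and library 2 above all of them. Bmi1 had a log2 change of -0.16 with a 95% interval of -0.72 to 0.40 (limma adjusted p = 0.642), and -0.33 without triclocarban library 2 (adjusted p = 0.19).

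Pcgf6 encodes the PCGF subunit of a variant PRC1 that represses germline genes (chromosome 19, 47033617 to 47050906, minus strand). It was at 130.3, 86.2, 80.6 and 97.0 FPKM in triclocarban libraries 1 to 4 and at 93.2, 78.8, 130.3 and 126.8 FPKM in controls 1 to 4. The groups overlapped over nearly the whole range, and controls 1 and 2 were below controls 3 and 4. Pcgf6 had a log2 change of -0.12 with a 95% interval of -0.70 to 0.47 (limma adjusted p = 0.763).

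Cbx7, which encodes a chromodomain subunit by which canonical PRC1 binds methylated H3K27 (chromosome 15, 79915807 to 79971119, minus strand), was the lowest of the tested members. It was at 0.71, 1.24, 3.17 and 1.59 FPKM in triclocarban libraries 1 to 4 and at 4.98, 2, 4.61 and 2.2 FPKM in controls 1 to 4. Of the treated libraries, 3 lay below all controls and library 3 lay among them. Its log2 change of -0.74 (standard error 0.34) did not pass the threshold (limma adjusted p = 0.0997). Without triclocarban library 3 it was -0.98 and passed (adjusted p = 0.0421).

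In order of mean level with triclocarban, the members were Bmi1, Ezh2, Suz12, Eed, Pcgf6, Rnf2, Ezh1, Jarid2, Cbx7 and Ring1. In controls they were Bmi1, Ezh2, Pcgf6, Rnf2, Eed, Suz12, Ezh1, Jarid2, Cbx7 and Ring1. Bmi1 was first in 3 of 4 triclocarban libraries and in 4 of 4 controls. In controls, the neighbours Ezh2, Pcgf6, Rnf2, Eed and Suz12 did not part beyond their spread: their ranges were 93.2 to 153.8, 78.8 to 130.3, 74.2 to 99.6, 69.7 to 78.7 and 62.4 to 90.2 FPKM. With triclocarban, neighbours overlapped too: Suz12 (103.7 to 405.6 FPKM) with Eed (120.1 to 177.4 FPKM), and Eed with Pcgf6 (80.6 to 130.3 FPKM). Ezh1 and Jarid2 formed a lower level, under 20 FPKM, in both groups.

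Triclocarban library 2 was the highest of the treated libraries for 4 members (Ezh2, Suz12, Rnf2 and Bmi1) and the lowest for 2 (Ezh1 and Eed). Relative to the mean of the other 3 it was at 1.16 times for Ezh2, 1.71 times for Rnf2, 1.6 times for Bmi1 and 0.7 times for Eed. The pairs of controls were apart for 4 members. Controls 1 and 2 were above controls 3 and 4 for Ezh2, and below them for Rnf2, Bmi1 and Pcgf6.

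The log2 changes of the members are given as deposited, where the median of all tested genes was -0.19. Relative to that median, Ezh2 was at 1.26, Eed at 1.23 and Suz12 at 1.42. Median-of-ratios scaling moved the median of all genes to 0.06 and quantile normalization to 0.14. With these scalings the calls split into 45.3% and 50.6% higher genes among those called, against 26.9% as deposited. Relative to the moved median, Ezh2 was at 1.31, Eed at 1.28 and Suz12 at 1.48 after median-of-ratios scaling. After quantile normalization Ezh2 was at 0.84, Eed at 0.93 and Suz12 at 1.18, each below its value as deposited. Each of the 3 stayed called under both.

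Of the genes that work with these complexes, 69 were listed in 7 groups, 68 were found and 56 passed the filter. With triclocarban 3 of these were higher (5.4%) and 12 lower (21.4%), where 11.3% and 30.8% of all tested genes were, and their median log2 change was -0.22. Accessory PRC2 subunits went both ways, with 1 of 7 tested higher and 1 lower. Rbbp7, a histone-binding subunit that PRC2 shares with other complexes, was at 774.3, 267.4, 1023 and 819.4 FPKM in triclocarban libraries 1 to 4 and at 183.8, 188.4, 238.6 and 184.5 FPKM in controls 1 to 4. All treated libraries lay above all controls, with library 2 far below the other treated ones, and the log2 change was 1.703 (standard error 0.38, limma adjusted p = 0.00426). Mtf2, a Polycomb-like protein that ties PRC2 to CpG-rich DNA, was at 31.3, 36.9, 24.6 and 28.1 FPKM in triclocarban libraries 1 to 4 and at 81.05, 58.3, 159.45 and 220.2 FPKM in controls 1 to 4. It was lower in all treated libraries, with a log2 change of -1.89 (adjusted p = 0.00248). Leaving out controls 3 and 4 gave -1.17, and leaving out controls 1 and 2 gave -2.61.

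The remaining PCGF genes held 1 lower gene of 3 tested and 0 higher by limma. Of all tested genes, 30.8% were lower and 11.3% higher. At an unadjusted p under 0.05, 1 PCGF gene (Pcgf1) was higher. A higher call of 1 gene appeared with median-of-ratios scaling, rescaling to TPM, equal sums without mitochondrial genes, and library weights. The same count of 1 was found when triclocarban library 2, controls 1 and 2, or controls 3 and 4 were left out. The count does not say which gene was called, and it may not be Pcgf1 each time. Dropping controls 1 and 2 gave the 3 genes a median log2 change of 0.502. Dropping controls 3 and 4 instead gave a median of -0.446. Pcgf5, a variant PRC1 subunit, averaged 33.7 ± 6.42 FPKM with triclocarban and 206.5 ± 105.3 FPKM in controls (SD, n = 4 each), with a log2 change of -2.45 (limma adjusted p = 0.000325). The controls parted in pairs, at 117.7 and 122.4 FPKM in libraries 1 and 2 and 334 and 251.8 FPKM in libraries 3 and 4. Of the other canonical PRC1 subunits, 0 of 5 tested were called, by limma, in either direction. At an unadjusted p under 0.05 there were 0 as well, and the smallest p belonged to Phc1, a polyhomeotic subunit, with a log2 change of 0.53 (adjusted p = 0.211). Phc1 was called without controls 1 and 2 (log2 change 1.02, adjusted p = 0.0122) and after quantile normalization (log2 change 0.93, adjusted p = 0.0271).

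Variant PRC1 subunits were higher in 2 of 20 tested genes and lower in 4, where 11.3% and 30.8% of all tested genes were. These counts were 5 and 3 with median-of-ratios scaling, and 6 and 6 when controls 1 and 2 were left out. Kdm2b, which brings a variant PRC1 to unmethylated CpG islands, was at 141, 138.5, 161.7 and 189.7 FPKM in triclocarban libraries 1 to 4 and at 49.7, 49.0, 28.1 and 33.0 FPKM in controls 1 to 4. All treated libraries were above all controls, and the log2 change was 1.98 (standard error 0.27, limma adjusted p = 0.000209). The histone deacetylase gene Hdac1 averaged 20.8 ± 3.03 FPKM with triclocarban and 79.2 ± 20.2 FPKM in controls (SD, n = 4 each), a log2 change of -1.85 (adjusted p = 0.000253). L3mbtl2, a subunit of the PCGF6 complex, averaged 2.31 ± 0.62 FPKM with triclocarban and 9.94 ± 1.115 FPKM in controls, a log2 change of -1.74 (adjusted p = 0.000265). The others called, named after their values were seen, were Skp1a, which was higher, and Bcor and Yaf2, which were lower. Bcor was below 1 FPKM in triclocarban libraries 1, 3 and 4, so the filter took it through the controls, and its lower call carries little weight.

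Genes that remove the H2A ubiquitin mark, or that encode partners of the enzyme that does, were lower in 3 of 12 tested and higher in 0, where 30.8% and 11.3% of all tested genes were. Without triclocarban library 2, 5 were lower, and after quantile normalization 2 were lower and 1 higher. Ogt, the O-GlcNAc transferase, was at 5.45 ± 1.25 FPKM with triclocarban and 20.6 ± 4.60 FPKM in controls (SD, n = 4 each), a log2 change of -1.75 (limma adjusted p = 0.000422). Mysm1, a deubiquitinase of H2A, had a log2 change of -1.31 (adjusted p = 0.00989), and -0.78 without controls 3 and 4 (adjusted p = 0.0953). Hcfc1, a partner of OGT, had -0.95 (adjusted p = 0.0272), and its call was lost after quantile normalization (adjusted p = 0.198), after median-of-ratios scaling (adjusted p = 0.111), and with no filter (adjusted p = 0.0516). It was also lost on leaving out triclocarban library 1 or 3 or control 2, 3 or 4 (adjusted p from 0.0528 to 0.0879), or both controls 3 and 4 (adjusted p = 0.176). At an unadjusted p under 0.05, 0 genes of this group were higher.

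Of the 3 genes of the H3K27 demethylase family, 1 was lower, the Y-linked Uty. It was at 0.57, 1.85, 0.92 and 1.01 FPKM in triclocarban libraries 1 to 4 and 3.98, 4.53, 3.38 and 8.96 FPKM in controls 1 to 4. Its log2 change was -1.53 (limma adjusted p = 0.00209). Uty was below 1 FPKM in triclocarban libraries 1 and 3, so the filter took it through the controls, and its lower call carries little weight. The share of male embryos in each library and the enzymatic activity of UTY were not tested. Kdm6a did not pass (log2 change 0.84, adjusted p = 0.0618). Under both median-of-ratios scaling and quantile normalization, with the replicate number as a block, and without triclocarban library 1, 1 gene of the 3 was called higher. Kdm6b overlapped between the groups, with a log2 change of -0.05, and its controls parted in pairs. It was at 16.2 to 20.4 FPKM with triclocarban, and at 35.0, 27.3, 11.7 and 10.5 FPKM in controls 1 to 4. Over the 3 genes, 2 were called higher and 1 lower without controls 1 and 2. Without controls 3 and 4, 0 were higher and 2 lower. Among genes related to the DNA-binding Polycomb complex PhoRC, 2 of 6 tested were lower and 0 higher by limma. Of all tested genes, 30.8% were lower and 11.3% higher. With median-of-ratios scaling, and without controls 1 and 2, 1 of the 6 was called higher. At an unadjusted p under 0.05, 3 were lower (Yy2 besides the 2 named next) and 0 higher. Zfp42, a YY1-related factor of early embryos, averaged 3.44 ± 0.89 FPKM with triclocarban and 17.5 ± 5.35 FPKM in controls (SD, n = 4 each), a log2 change of -2.04 (adjusted p = 0.000223). Yy1 was at 3.15, 17.2, 7.38 and 9.16 FPKM in triclocarban libraries 1 to 4 and at 15.2, 31.9, 51.0 and 65.1 FPKM in controls 1 to 4. Triclocarban library 2 lay above control 1, so the groups overlapped. Its log2 change was also -2.04 (adjusted p = 0.00693), and without controls 3 and 4 it was -1.37 (adjusted p = 0.0987).

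**Figure D3:**
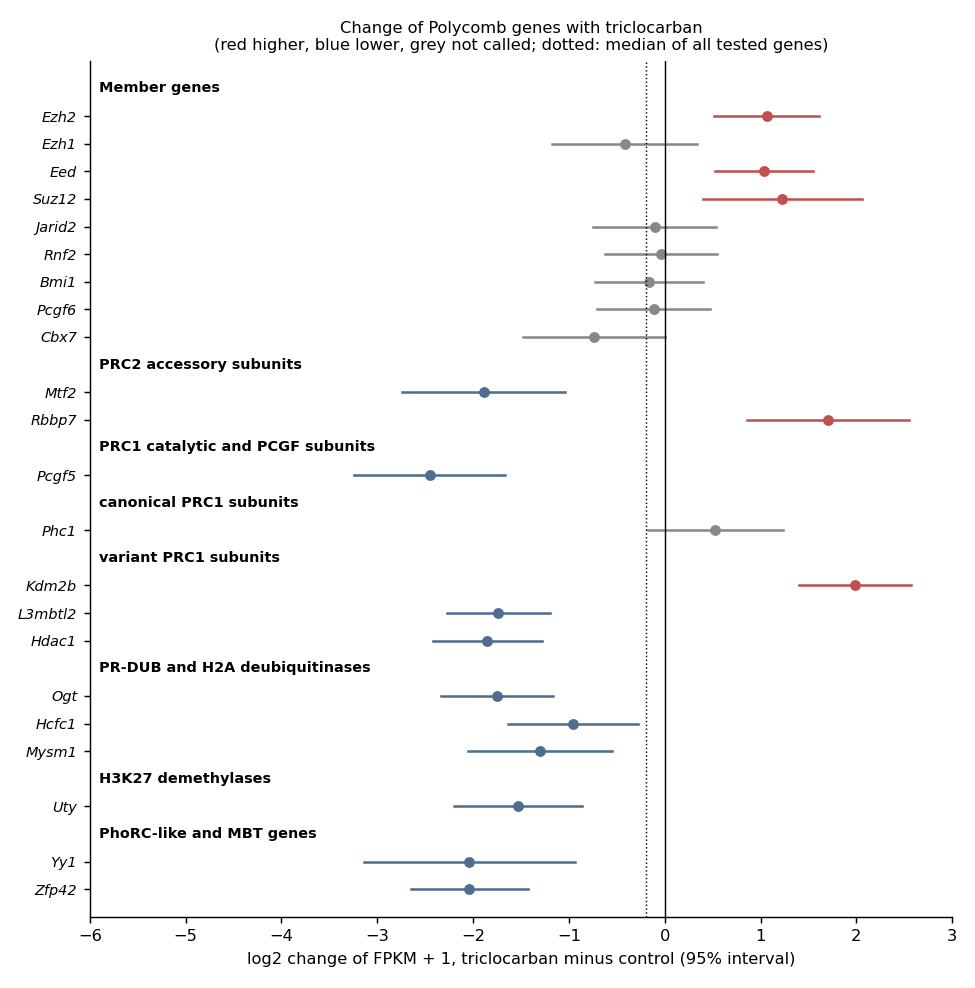
Log2 change of FPKM + 1, triclocarban minus control, with its 95% interval, for the 9 tested members and the named genes of 7 related groups. Red marks genes called higher, blue genes called lower and grey genes not called, and the dotted line is the median of all tested genes (-0.19). Ezh2, Eed and Suz12 lie near 1, beside Rbbp7 (1.703) and Kdm2b (1.98), while the other called genes lie below 0.

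Genes whose maternal copy is known to be silenced by oocyte-derived H3K27 methylation, or that act in X inactivation, were mostly low. Of 16 listed, 6 passed the filter, 3 were lower and 0 higher, where 30.8% and 11.3% of all tested genes were. With the replicate number as a block, 1 was called higher. A count over so few genes is a description. Xist was at 0.01 to 0.21 FPKM with triclocarban and 0.09 to 0.45 FPKM in controls. Sfmbt2, Slc38a4, Smoc1 and Gab1 were also below the filter. Jade1 was at 0.71, 2.62, 0.98 and 1.28 FPKM in triclocarban libraries 1 to 4 and at 4.94, 5.29, 6.45 and 9.29 FPKM in controls 1 to 4, a log2 change of -1.67 (limma adjusted p = 0.00107). Etv6, an ETS family repressor, was at 0.11 to 0.43 FPKM with triclocarban and 1.49 to 4.71 FPKM in controls. It reached 1 FPKM in controls only, so the filter took it because it was high there, and its lower call carries little weight. It had a log2 change of -1.61 (limma adjusted p = 0.000719). Jade1 was below 1 FPKM in triclocarban libraries 1 and 3, and Bbx in triclocarban libraries 2 and 4. They too passed the filter through the controls, so the 3 lower calls carry little weight. Bbx had -0.79 (adjusted p = 0.0319), a call lost after quantile normalization (adjusted p = 0.216), after median-of-ratios scaling (adjusted p = 0.086), and with no filter (adjusted p = 0.0868). It was also lost on leaving out triclocarban library 2, 3 or 4 or control 2 or 3 (adjusted p from 0.0541 to 0.101), controls 1 and 2 (adjusted p = 0.0517) or controls 3 and 4 (adjusted p = 0.0605). At an unadjusted p under 0.05, 0 genes of this group were higher.

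The tested genes outside the members whose centred log2(FPKM + 1) profile over the 8 libraries was nearest to that of Eed were Sdhd and Rwdd3, each at a mean absolute difference of 0.076 log2 units, and Mrpl16, at 0.092. Sdhd, which encodes a subunit of mitochondrial complex II, was at 26.0, 14.6, 21.5 and 20.3 FPKM in triclocarban libraries 1 to 4 and at 9.62, 9.76, 8.39 and 8.48 FPKM in controls 1 to 4. For Cbx7, the PRC1 member with the smallest adjusted p, the nearest were Nxt2 (0.226), Scimp (0.248) and Slc14a2 (0.251).

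**Figure D4:**
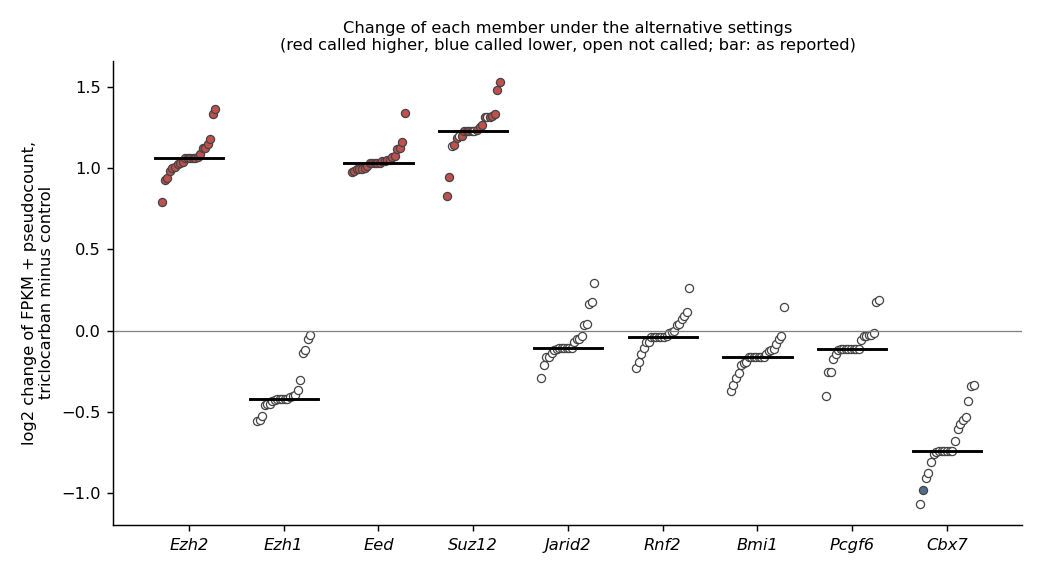
Log2 change of each tested member, triclocarban minus control, under each alternative setting (points, sorted by value; 22 settings, and 21 for Cbx7), with the value as reported as a bar. Filled red points are called higher, the filled blue point called lower and open points not called. Ezh2 runs from 0.79 to 1.37 and Eed from 0.98 to 1.34, called in all 22, while Suz12 runs from 0.83 to 1.53 and is called in 18.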

How the data were processed

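The deposited data are 1 table of FPKM values computed by the authors, in which each of the 8 libraries has a column, assigned by its name. The submitters' processing notes name STAR, StringTie, featureCounts, DESeq2 1.30.1 and the build mm10 without saying what each was used for. Not given in the sources used here are the annotation release, whether strand was used, and how multiply mapped reads were handled. The labels' protocols describe 2 ways of preparing libraries without saying which library had which. Exons of 5 members share bases with a gene on the opposite strand in GENCODE M21, at most 6.8% of a member's exon bases (Eed), and such reads cannot be assigned from FPKM. Depth was estimated from the commonest product of FPKM and exon length, and only 4.8 to 6.5% of low values came out whole (tolerance 0.02; 4% would by chance), so no reads were recovered and no count test was run. No pair of libraries held identical values.

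Identifiers were matched to GENCODE M21 (GRCm38) without their version: 32620 of 37310 (87.4%) had a symbol. The test was limma 3.58.1 in R 4.3.3 (lmFit and trended eBayes) on log2(FPKM + 1), with treatment as the only term, for genes that reached 1 FPKM in 4 or more of the 8 libraries, and p-values were adjusted by Benjamini-Hochberg over these 12941 genes. Changes on this scale understate those of low genes. The step was tested on simulated data. Tables were made with Python 3.11.15 and pandas 2.3.3. The members, the related gene lists, the test and the alternatives were chosen with earlier results of these data known. Named are all members and, of each list, the 3 genes past the threshold with the smallest adjusted p, or all where there were fewer, or the gene with the smallest p where there was none. For the PRC2 and the PRC1 member with the smallest adjusted p, the 3 genes of nearest profile are named. Promoter windows come from RefSeq (GRCm38.p6). Alternatives were other pseudocounts, filters and scalings, the replicate number as a block, other moderation, library weights, and leaving out each library or a pair of controls.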

Additional observations from a re-analysis of the deposited data

Results flagged for a closer look

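In each group of 4 libraries, a value was listed here when its gap to the nearest other library took a larger part of the group's range than Dixon's 95% limit, which chance alone meets in about 1 in 20 groups. Of 63 groups of 4 examined, over the members and the named genes, 6 were listed, 3 of them for members. Ezh1 in triclocarban library 2 was at 5.15 FPKM, below 15.4 to 16.5 FPKM in the other treated libraries. Eed in control 3 was at 69.74 FPKM, below 78.4 to 78.7 FPKM in the other controls. Ring1 in control 1 was at 0.03 FPKM, where the other controls were listed at 0. With the others tied at 0, any value above 0 would be listed, so this listing carries no weight. Rbbp7 in control 3 was at 238.63 FPKM, L3mbtl2 in control 1 at 11.61 FPKM and Zfp42 in control 3 at 25.41 FPKM, each the highest of the controls.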

How the results depend on the processing

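Ezh2 and Eed were called higher in all 22 alternatives and Suz12 in 18, and Cbx7 was called lower in 1 of 21 (without triclocarban library 3). The number of genes called higher, 1466 as reported, was 2638 with median-of-ratios scaling, 2915 with quantile normalization, 2838 without controls 1 and 2, and 695 without controls 3 and 4. It ran from 953 to 1860 when single libraries were left out. The number called lower, 3981, was 2492 with the filter at 5 FPKM, where fewer genes were tested, and ran from 3469 to 4180 with single libraries left out. The number of members called higher ran from 2 to 3 and of members called lower from 0 to 1 with single libraries left out. Some members that were not called changed sign, and none of these values passed the threshold. Jarid2 was at 0.175 with median-of-ratios scaling, 0.292 with quantile normalization and 0.167 with library weights. Rnf2 was at 0.264 with median-of-ratios scaling, 0.072 with quantile normalization, 0.042 rescaled to TPM and 0.116 without controls 3 and 4. Bmi1 was at 0.143 and Pcgf6 at 0.188 with median-of-ratios scaling, and Pcgf6 at 0.174 without controls 3 and 4. With single libraries left out, Jarid2 ran from -0.292 to 0.04 and Rnf2 from -0.232 to 0.091. The causes were not tested. Over members and named genes, 625 alternative values kept direction and side of the threshold, 32 lost the call, 3 gained it and 15 changed sign.

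The replicate numbers were not treated as pairs, since the labels do not say that they pair libraries. Same-numbered libraries of the groups correlated in their deviations at 0.338, 0.053, 0.095 and 0.104. Triclocarban libraries 1, 3 and 4 each correlated best with the control of the same number, and library 2 with control 4 (0.082). With the replicate number as a block, 1544 genes were higher and 4061 lower. No call of a member, or of a gene named by the rule given above, changed. Counts of related lists did change with the block. H3K27 demethylases and H3K27me3-imprinted genes each held 1 higher gene in place of 0. Variant PRC1 subunits held 3 higher and 5 lower, the H2A deubiquitinase group 4 lower, and the stage markers 6 higher. The library weights stopped short of their convergence limit. Depth was only estimated, which limits what can be said of low genes such as Cbx7 and Ring1.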

Other observations

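Pcgf2, which encodes the PCGF subunit MEL18, was at 35.32 FPKM in triclocarban library 2 and at most 0.13 FPKM in the other 7 libraries, and it was below the filter and not tested. Pcgf1, a subunit of the KDM2B complex, was at 424.3, 218.7, 361.2 and 420.2 FPKM in triclocarban libraries 1 to 4 and at 174.5, 175.2, 252.1 and 234.2 FPKM in controls 1 to 4, which overlapped through triclocarban library 2 and missed the threshold (log2 change 0.74, limma adjusted p = 0.057).
Both genes were chosen after their values were seen.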
